A study of Rattus norvegicus with 17 samples.

Results

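Regulatory T cell genes were examined in CD4+ T cells taken from inguinal lymph nodes by flow cytometric sorting. The rats were females of the inbred Dark Agouti strain, which readily develops experimental autoimmune encephalomyelitis, an animal model for multiple sclerosis. The 10 genes, chosen by name, are the lineage factors Foxp3 and Ikzf2, the interleukin-2 receptor chains Il2ra and Il2rb, the inhibitory receptors Ctla4 and Lag3, the ectoenzymes Nt5e and Entpd1, the cytokine Il10 and the co-receptor Nrp1. They are 10 of 14506 genes with a value, and each was read from the only transcript cluster (the probes of a gene on the array) that carries its symbol and no other. The age-matched rats ate a vitamin D deprived diet of 0 IU (5 arrays), a regular diet of 2 IU (6 arrays) or a supplemented diet of 10 IU (6 arrays), 1 array per biological replicate. All of them were immunized with myelin oligodendrocyte glycoprotein (MOG) after 5 weeks on the diet, and cells were taken 7 days after immunization, so every group is an immunized one. The sources used here do not say to which amount of feed the IU refer. Regulatory T cells were not sorted apart from other CD4+ T cells, so fewer cells of that type and less RNA per cell cannot be told apart.

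Regulatory T cells are CD4+ T cells that restrain other immune cells and limit autoimmune inflammation. FOXP3 is the transcription factor that defines them, and they depend on interleukin-2, which they bind with high affinity through the receptor alpha chain CD25. They act through the inhibitory receptor CTLA-4, through interleukin-10, and through the surface enzymes CD39 and CD73, which convert extracellular ATP to adenosine. Several of these genes are also expressed by activated conventional CD4+ T cells.

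Nt5e, which encodes CD73, was higher in deprived than in regular T cells by 0.29 on the log2 scale and lower in supplemented than in deprived T cells by 0.39. Its call for deprived against regular T cells was lost in several fits that left out 1 array or changed the processing. Ctla4 was lower in supplemented than in regular T cells by 0.53 and lower in supplemented than in deprived T cells by 0.52, close to the threshold in both. Foxp3, Ikzf2, Il2ra, Il2rb, Lag3, Entpd1, Il10 and Nrp1 did not pass in any comparison of diets. A gene passed when its adjusted p was below 0.05 in limma, a linear model with variances moderated across genes, after Benjamini-Hochberg adjustment over all 14506 genes. All adjusted p-values for diets below come from that fit.

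**Figure D1:**
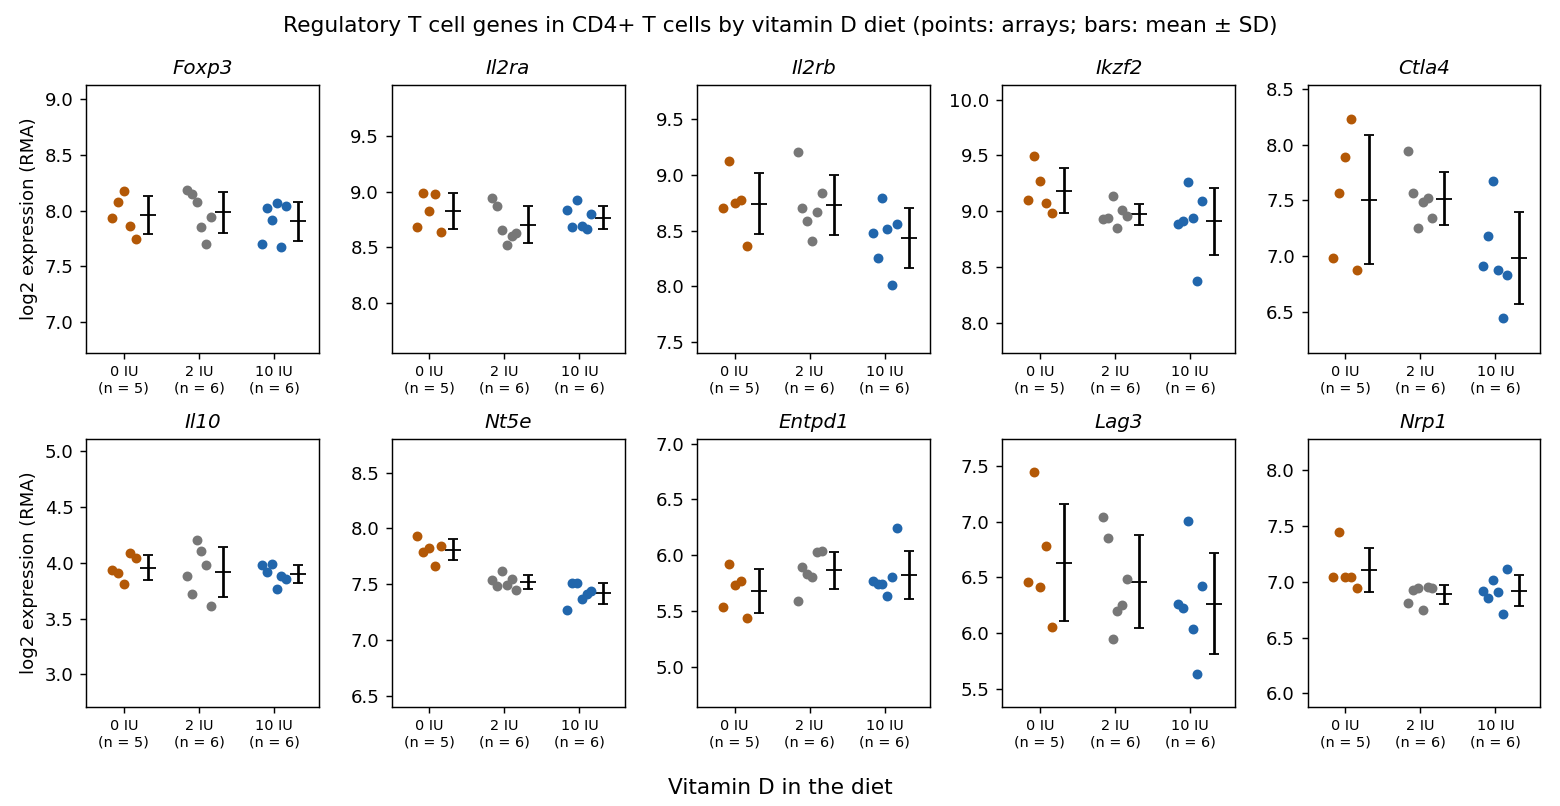
Log2 expression (y axis) of the 10 genes by dietary vitamin D (x axis, 0, 2 and 10 IU), with 1 point per array and the mean ± SD of each diet. The 5 deprived points of Nt5e lie above all points of the other diets, whereas those of Foxp3 overlap in all diets.

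The supplemented arrays differed from the others in spread and in markers of cell types. The SD of an array over all transcript clusters was 2.03 to 2.07 at 0 IU, 2.00 to 2.06 at 2 IU and 1.91 to 1.97 at 10 IU. The mean of 8 CD4+ T cell markers was 10.43 to 10.66 at 0 IU, 10.47 to 10.67 at 2 IU and 10.11 to 10.36 at 10 IU. Of these 8, 5 were lower in supplemented than in regular T cells, among them Cd4 (-0.59, SE 0.11, adjusted p = 0.000339) and Cd3e (-0.29, SE 0.08, adjusted p = 0.00737), and 6 were lower in supplemented than in deprived T cells. Over all genes 16.7% were lower and 10.1% higher in the comparison with the regular diet, and 21.2% lower and 18.4% higher in that with the deprived diet. The mean of 6 measured B cell markers was 5.93 to 6.11 at 0 IU, 5.80 to 6.34 at 2 IU and 5.99 to 6.54 at 10 IU. Against the regular diet 4 of the 6 were higher and 0 lower, and against the deprived diet 4 were higher and 1 lower. The lower one was Cd22, at -0.49 (adjusted p = 0.0771) and -0.59 (adjusted p = 0.0349), named after its values were seen. The mean of 7 endothelial and stromal markers was 6.17 to 6.29 at 0 IU, 6.24 to 6.34 at 2 IU and 6.32 to 6.44 at 10 IU, with 1 higher and 1 lower against the regular diet and 4 higher and 1 lower against the deprived diet. Of 10 macrophage, monocyte and neutrophil markers 1 was higher in each of these comparisons. Of 5 dendritic cell markers 0 were higher against the regular and 1 against the deprived diet, and of 6 CD8 T and NK cell markers 1 was higher and 1 lower against the regular and 1 higher and 0 lower against the deprived diet. In limma without a covariate 5877 genes had an unadjusted p below 0.05 for supplemented minus regular. With array spread as a covariate limma called 0 of 14506 genes in that comparison, with 1416 at an unadjusted p below 0.05. Every call of that comparison was thus lost in that fit. Array spread at 10 IU lay wholly below that of both other diets, so this fit cannot tell spread and diet apart. Beyond it and a fit with the B cell marker mean as a covariate, the part of these differences in the results was not tested. Between deprived and regular T cells limma called 0 of these 42 markers, with 5 at an unadjusted p below 0.05. Of all 14506 genes it called 0.944% there, with 2022 at an unadjusted p below 0.05, so these counts are near the shares of all genes.

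The ectoenzyme genes encode consecutive steps in the breakdown of ATP. CD73, the product of Nt5e, cleaves adenosine monophosphate to adenosine. Nt5e had log2 values of 7.93, 7.79, 7.82, 7.66 and 7.85 on the deprived arrays. The lowest, median and highest values were 7.44, 7.51 and 7.62 on the regular arrays and 7.27, 7.43 and 7.51 on the supplemented arrays. The deprived range lay wholly above both others, which overlapped each other. The means were 7.81 ± 0.0973 at 0 IU (SD, n = 5), 7.52 ± 0.0605 at 2 IU (SD, n = 6) and 7.42 ± 0.0919 at 10 IU (SD, n = 6).

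The rise of Nt5e in deprived over regular T cells was 0.29 (SE 0.06, 1.22-fold, adjusted p = 0.0284), with 5 of 5 deprived arrays above the highest regular array. In this comparison 0.944% of all genes passed, 0.834% as higher, and 3.45% had a deprived range wholly above the regular one. Nt5e was 1 of the 10 genes in each of these counts and the other 9 were in none of them. Supplemented minus deprived was -0.39 (SE 0.06, 0.762-fold, adjusted p = 4.04e-05), with 6 of 6 supplemented arrays below the lowest deprived array. There 39.5% of all genes passed, 21.2% as lower and 18.4% as higher, and 13.3% had a supplemented range wholly below the deprived one. Supplemented minus regular was -0.10 (95% interval -0.23 to 0.02, adjusted p = 0.194), with 6 of 6 supplemented arrays below the regular mean and 4 of 6 below the lowest regular array. In the F test over the 3 diets, which 36.9% of all genes passed, Nt5e alone among the 10 passed (adjusted p = 0.000109).

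The rise of Nt5e with deprivation sat near the threshold. When each array was left out in turn it stayed between 0.26 and 0.33 and passed in 9 of 17 fits, with adjusted p from 0.0222 to 0.0878. It did not pass without any 1 of deprived replicates 2, 3, 4 and 6 or of regular replicates 2, 4, 5 and 6. Of the arrays compared, it passed only without deprived replicate 5 or regular replicate 1 or 3. The other passing fits left out a supplemented array, which cannot move the difference from 0.29. The difference between supplemented and deprived T cells passed in 17 of 17 fits that each left out 1 array, at -0.43 to -0.36. With the SD of each array over all transcript clusters as a covariate that difference was -0.34 (SE 0.14, unadjusted p = 0.0224, adjusted p = 0.446). This limma fit called 0 of 14506 genes and left 1385 with an unadjusted p below 0.05, against 7240 without the covariate.

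Entpd1 encodes CD39, which removes phosphates from ATP and ADP ahead of CD73. Its log2 values were 5.54, 5.92, 5.73, 5.77 and 5.43 on the deprived arrays, and ranged over 5.59 to 6.04 with the regular diet and 5.64 to 6.24 with the supplemented diet. The 3 ranges overlapped. Deprived minus regular was -0.19 (95% interval -0.40 to 0.03, adjusted p = 0.437) and supplemented minus deprived was 0.14 (95% interval -0.07 to 0.36, adjusted p = 0.262).

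Of 6 measured neighbours in adenosine handling (the receptors Adora2a and Adora2b, Ada, Adk, Dpp4 and the transporter Slc29a1), 1 was lower and 5 did not pass in supplemented against regular T cells. That gene was Ada, the deaminase that converts adenosine to inosine, which fell by 0.31 (SE 0.08, adjusted p = 0.00796, n = 6 and 6). Over all genes 16.7% were lower in that comparison, near the share of this list. Limma called 0 of the 6 for deprived minus regular, with 1 at an unadjusted p below 0.05, and 0 for supplemented minus deprived, with 2 at an unadjusted p below 0.05. Of all 14506 genes limma called 39.5% for supplemented minus deprived, with 7240 at an unadjusted p below 0.05.

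The bases upstream of Nt5e and Ctla4 are shown because these are the genes that passed. They are RefSeq promoter sequences on GRCr8, which were given for 7 of the 10 genes, and each line holds the 250 bases before the transcription start, 5′ to 3′ on the strand of the gene. Nt5e lies on the plus strand at chr8:98150675-98150924 and Ctla4 on the plus strand at chr9:69813171-69813420. Capitals mark, on either strand, GGGCGG, the core of the motif of Sp1-type factors, in Nt5e, and the TATA motif TATAAA and GGTTCA, a variant of the hexamer bound by the vitamin D receptor, in Ctla4.
Nt5e: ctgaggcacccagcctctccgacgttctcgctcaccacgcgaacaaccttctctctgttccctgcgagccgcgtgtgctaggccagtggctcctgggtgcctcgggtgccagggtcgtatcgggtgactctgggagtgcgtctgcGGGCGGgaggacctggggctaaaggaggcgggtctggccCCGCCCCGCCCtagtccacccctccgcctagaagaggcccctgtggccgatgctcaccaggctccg
Ctla4: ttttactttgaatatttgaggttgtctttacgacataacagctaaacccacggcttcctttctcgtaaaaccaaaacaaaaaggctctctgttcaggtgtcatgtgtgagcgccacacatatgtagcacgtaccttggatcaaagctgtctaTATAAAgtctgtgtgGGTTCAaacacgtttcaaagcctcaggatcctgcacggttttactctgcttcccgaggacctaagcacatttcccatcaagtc
The Nt5e stretch is 68.8% G and C and holds GGGCGG at 3 places, of which a pair on the opposite strand share 1 base. The Ctla4 stretch is 43.6% G and C, with TATAAA 98 to 93 bases and GGTTCA 83 to 78 bases before the start. Over 33469 promoters of the same length, 30.467% held GGGCGG, 12.931% held TATAAA, 9.767% held GGTTCA and 14.064% held AGGTCA, the other hexamer searched. AGGTCA, its direct repeat with 3 bases between the copies (0.021% of promoters) and TTCNNNGAA, the motif of STAT factors (7.667%), occurred in 0 of the 7. The marked motifs are not particular to the genes that passed: GGGCGG also occurred in Ikzf2, GGTTCA in Entpd1, and TATAAA in Foxp3 and Il2ra. Such matches describe the letters of these windows and not binding.

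The inhibitory receptor CTLA-4 binds CD80 and CD86 on antigen-presenting cells and withholds them from the costimulatory receptor CD28. Ctla4 had log2 values of 6.99, 7.56, 7.89, 8.23 and 6.87 on the deprived arrays. The lowest, median and highest values were 7.25, 7.50 and 7.94 on the regular arrays and 6.44, 6.89 and 7.68 on the supplemented arrays. The deprived arrays were the most scattered (SD 0.578) and overlapped both other diets. Of the supplemented arrays 5 of 6 lay below every regular array, and the remaining 1 lay inside the regular range.

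In supplemented against regular T cells Ctla4 fell by 0.53 on the log2 scale (SE 0.20, 0.692-fold, n = 6 and 6, adjusted p = 0.0473). It was 1 of the 10 genes to pass, where 26.7% of all genes did, 16.7% as lower and 10.1% as higher. In supplemented against deprived T cells it fell by 0.52 (SE 0.21, 0.696-fold, n = 6 and 5, adjusted p = 0.0472), with overlapping ranges. Deprived minus regular was -0.01, and its 95% interval -0.43 to 0.42 held sizeable changes of either sign. The fall against the regular diet passed in 6 of 17 fits that each left out 1 array, at -0.67 to -0.42, and those were the fits without 1 of deprived replicates 2, 4, 5 and 6, of supplemented replicate 3, of regular replicate 3. The fall against the deprived diet passed in 5 of 17, at -0.68 to -0.34, those without 1 of deprived replicates 2 and 6, of supplemented replicates 2 and 3, of regular replicate 1. Each of these calls was lost without any 1 of the other arrays. Leaving out a deprived array cannot move the fall against the regular diet, nor a regular array the fall against the deprived diet. Of the arrays compared, the call against the regular diet was kept only without supplemented replicate 3 or regular replicate 3. The call against the deprived diet was kept only without deprived replicate 2 or 6 or supplemented replicate 2 or 3. With array spread as a covariate the differences from the regular and deprived diets were -0.45 (SE 0.40) and -0.42 (SE 0.50). They did not pass in limma (adjusted p = 0.748 and 0.833), with standard errors larger than the 0.20 and 0.21 without the covariate. With the B cell marker mean as a covariate the differences were -0.69 and -0.69 (adjusted p = 0.0235 and 0.0235 in limma). Within diets Ctla4 had r = 0.05 with array spread over 17 arrays. The F test over the diets did not call Ctla4 (adjusted p = 0.0522).

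Lag3 encodes a receptor that binds MHC class II and dampens T cell responses. Its log2 values were 6.46, 7.44, 6.42, 6.78 and 6.05 on the deprived arrays, and ranged over 5.94 to 7.04 with the regular diet and 5.63 to 7.01 with the supplemented diet. Each diet spanned more than 1 log2 unit, and the ranges overlapped. Supplemented minus regular was -0.20 (95% interval -0.64 to 0.25), deprived minus regular 0.17 (95% interval -0.30 to 0.63) and supplemented minus deprived -0.37 (95% interval -0.83 to 0.10, adjusted p = 0.192). Differences as large as those of Ctla4 fall inside the intervals of both comparisons with the supplemented diet.

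Of 4 measured genes around CTLA-4 (Cd28, Cd80, Cd86 and Lrba), 1 was lower and 3 did not pass in supplemented against deprived T cells. Over all genes 21.2% were lower there, and 13.3% had a supplemented range wholly below the deprived one. Lrba, whose protein keeps CTLA-4 from lysosomal breakdown in humans, fell by 0.30 (SE 0.08, adjusted p = 0.00573, n = 6 and 5), and its ranges did not overlap. Limma called 0 of the 4 in supplemented and 0 in deprived T cells against the regular diet, with 1 at an unadjusted p below 0.05 in each. Of all 14506 genes limma called 26.7% for supplemented minus regular, with 5877 at an unadjusted p below 0.05. For deprived minus regular it called 0.944%, with 2022.

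Among the lineage factors, Foxp3 had log2 values of 7.94, 8.08, 8.18, 7.87 and 7.74 on the deprived arrays. The lowest, median and highest values were 7.70, 8.01 and 8.18 on the regular arrays and 7.67, 7.97 and 8.07 on the supplemented arrays. The 3 diets covered nearly the same range. Supplemented minus regular was -0.08 (95% interval -0.27 to 0.11, adjusted p = 0.528), deprived minus regular -0.02 (95% interval -0.22 to 0.18, adjusted p = 0.95) and supplemented minus deprived -0.06 (95% interval -0.26 to 0.14, adjusted p = 0.653). Ikzf2 encodes Helios, an Ikaros family factor found in most thymus-derived regulatory T cells of mice. Its values were 8.98 to 9.49 on the deprived arrays, and ranged over 8.85 to 9.14 with the regular diet and 8.37 to 9.26 with the supplemented diet, the widest of the 3. Supplemented minus deprived was -0.27 (95% interval -0.51 to -0.04) and did not pass (adjusted p = 0.0585). Deprived minus regular was 0.21 (95% interval -0.02 to 0.45, adjusted p = 0.415), with 5 of 5 deprived arrays above the regular mean.

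Of 11 measured partners and regulators of Foxp3, 0 were higher, 2 lower and 9 did not pass in supplemented against regular T cells, and 0 were higher, 3 lower and 8 did not pass in supplemented against deprived T cells. Cbfb, whose protein stabilizes RUNX factors on DNA, fell by 0.36 against the regular diet (SE 0.09, adjusted p = 0.00481) and by 0.54 against the deprived diet (SE 0.09, adjusted p = 0.000126). The chromatin organizer Satb1 fell by 0.24 against the regular diet (SE 0.07, adjusted p = 0.0233) and by 0.26 against the deprived diet (SE 0.08, adjusted p = 0.0122). Bach2, a transcriptional repressor that favours regulatory T cells in mice, fell by 0.23 against the deprived diet (SE 0.07, adjusted p = 0.00987). Limma called 0 of the 11 for deprived minus regular, with 0 at an unadjusted p below 0.05. The median difference of the list was -0.10 for supplemented minus regular, beside 0.04 over all genes, and -0.02 for supplemented minus deprived, beside 0.05. The counts lie near the 16.7% and 21.2% of all genes that were lower in these comparisons.

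**Figure D2:**
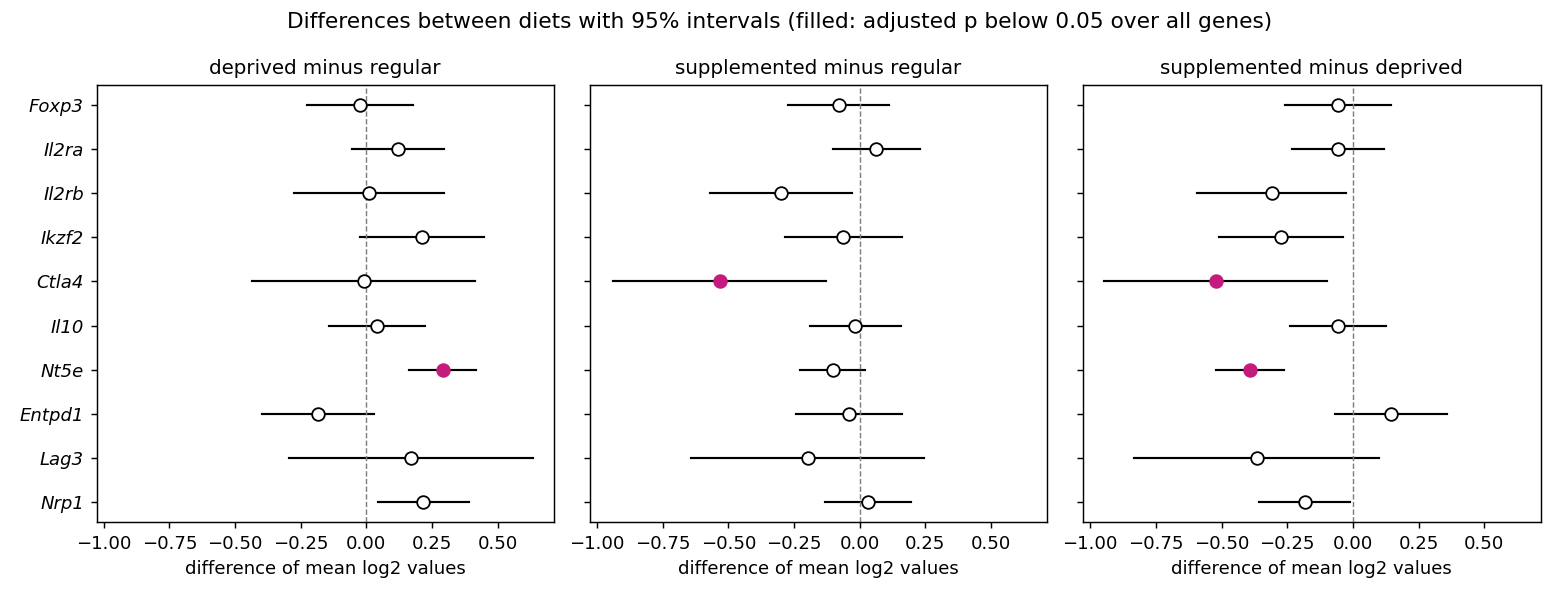
Difference of mean log2 values (x axis) of each of the 10 genes (y axis) in the 3 comparisons of diets, with 95% intervals of the model; filled points passed adjustment over all genes. Nt5e at 0.29 and -0.39 and Ctla4 at -0.53 and -0.52 are filled, and the intervals of Foxp3 include 0 in each panel.

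The interleukin-2 receptor genes did not pass. Il2ra, the CD25 gene, had log2 values of 8.64 to 8.99 on the deprived arrays, and ranged over 8.52 to 8.94 with the regular diet and 8.66 to 8.93 with the supplemented diet. Supplemented minus regular was 0.06 (95% interval -0.10 to 0.23, adjusted p = 0.563) and deprived minus regular 0.12 (95% interval -0.05 to 0.29, adjusted p = 0.561). Il2rb encodes the signalling beta chain, which the interleukin-15 receptor shares. Its values were 8.36 to 9.13 on the deprived arrays, and ranged over 8.41 to 9.20 with the regular diet and 8.01 to 8.79 with the supplemented diet, with means of 8.43 ± 0.269 at 10 IU and 8.73 ± 0.27 at 2 IU (SD, n = 6 each). Supplemented minus regular was -0.30 (95% interval -0.57 to -0.03) and missed the threshold (adjusted p = 0.0901). It passed in 2 of 17 fits that each left out 1 array, those without supplemented replicate 3 or without regular replicate 4. Supplemented minus deprived was -0.31 (95% interval -0.59 to -0.03, adjusted p = 0.0751), and deprived minus regular 0.01 (95% interval -0.27 to 0.29).

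Downstream of the receptor, 2 of 8 measured signalling partners were lower and 6 did not pass in each comparison with the supplemented diet, near the 16.7% and 21.2% of all genes that were lower. The kinase gene Jak1 fell by 0.31 against the regular diet (SE 0.06, adjusted p = 0.000724) and by 0.45 against the deprived diet (SE 0.07, adjusted p = 1.46e-05). Stat5b, a transcription factor gene of interleukin-2 signalling, fell by 0.45 against the regular diet (SE 0.08, adjusted p = 0.000196) and by 0.36 against the deprived diet (SE 0.08, adjusted p = 0.00131). Limma called 0 of the 8 for deprived minus regular, with 1 at an unadjusted p below 0.05.

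Il10 encodes a cytokine that restrains antigen-presenting cells. Its log2 values were 3.61 to 4.21 over all 17 arrays, and 7.09% of genes had a lower mean, whereas the other 9 genes lay above the 25th percentile of gene means (5.32). At a signal this low a change in transcript may go unseen. Supplemented minus regular was -0.02 (95% interval -0.19 to 0.16) and deprived minus regular 0.04 (95% interval -0.14 to 0.22). Of 4 measured genes of its receptor pathway, 1 was lower and 3 did not pass in each comparison with the supplemented diet. Over all genes 16.7% were lower in the comparison with the regular and 21.2% in that with the deprived diet. The transcription factor gene Stat3 fell by 0.42 against the regular diet (SE 0.10, adjusted p = 0.00312) and by 0.51 against the deprived diet (SE 0.10, adjusted p = 0.000527). Limma called 0 of the 4 for deprived minus regular, with 1 at an unadjusted p below 0.05.

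Nrp1 encodes neuropilin-1, a semaphorin co-receptor carried by thymus-derived regulatory T cells of mice. Its log2 values were 7.04, 7.45, 7.04, 7.04 and 6.94 on the deprived arrays, and ranged over 6.75 to 6.95 with the regular diet and 6.71 to 7.11 with the supplemented diet. Of the deprived arrays 4 of 5 lay above every regular array. Deprived minus regular was 0.22 (95% interval 0.04 to 0.39) and did not pass (adjusted p = 0.228). Left-out arrays moved this difference between 0.13 and 0.26, with the lowest value without deprived replicate 3. Supplemented minus deprived was -0.18 (95% interval -0.36 to -0.01) and did not pass (adjusted p = 0.0815), with 4 of 6 supplemented arrays below the lowest deprived array.

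Of 12 other measured genes of the regulatory T cell signature, 1 was higher, 0 lower and 11 did not pass in supplemented against regular T cells. It was Gpr83, a receptor gene enriched in regulatory T cells of mice, which was higher by 0.21 (SE 0.07, adjusted p = 0.0363). In supplemented against deprived T cells 2 were higher, 0 lower and 10 did not pass. Gpr83 was higher by 0.32 (SE 0.08, adjusted p = 0.00301) and Pdcd1, the gene of the inhibitory receptor PD-1, by 0.19 (SE 0.07, adjusted p = 0.0433). These counts lie near or below the 10.1% and 18.4% of all genes that were higher, and the median difference of the list was 0.10 and 0.11, beside 0.04 and 0.05 over all genes. Of 6 measured genes of the transforming growth factor beta pathway, which induces Foxp3 outside the thymus, Smad2 fell by 0.21 in supplemented against deprived T cells (SE 0.07, adjusted p = 0.024) and 5 did not pass. Over all genes 21.2% were lower in that comparison. Limma called 0 of the 12 signature genes between deprived and regular T cells, with 0 at an unadjusted p below 0.05. Of the 6 genes it called 0 in supplemented against regular T cells, with 0 at an unadjusted p below 0.05, and 0 in deprived against regular T cells, with 2. Of all 14506 genes limma called 26.7% for supplemented minus regular, with 5877 at an unadjusted p below 0.05. For deprived minus regular it called 0.944%, with 2022.

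**Figure D3:**
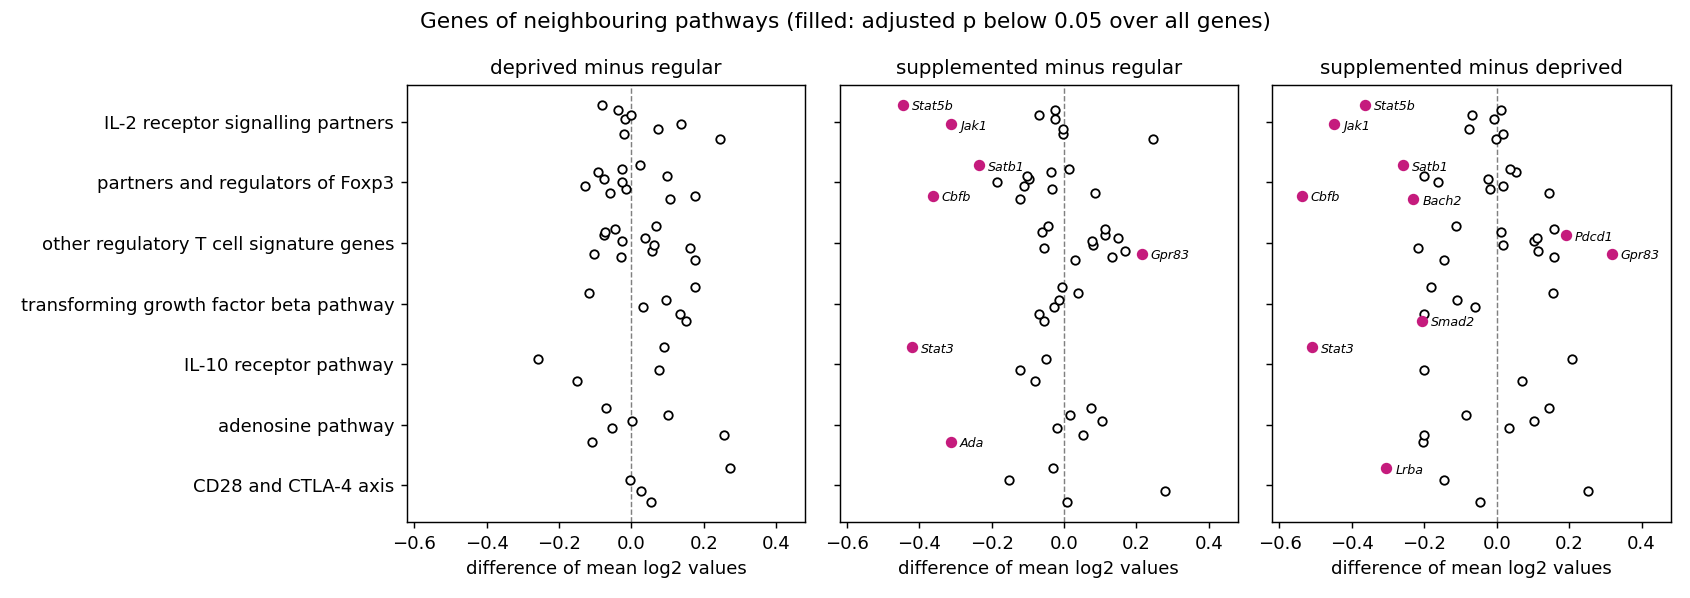
Difference of mean log2 values (x axis) of single genes in 7 neighbouring pathways (y axis) for the 3 comparisons of diets; filled and named points passed adjustment over all genes, and height within a row has no meaning. No point is filled for deprived minus regular, and Stat5b, Jak1, Cbfb and Stat3 are filled below 0 in both comparisons with the supplemented diet.

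The median difference of the 10 genes was -0.07 for supplemented minus regular, beside 0.04 over all genes. It was 0.08 for deprived minus regular, beside -0.01, and -0.23 for supplemented minus deprived, beside 0.05. The comparisons share arrays, so these medians are not independent of each other. The medians over all genes are not matched for signal level, and 9 of the 10 genes lay above the 25th percentile of gene means. Whether signal level or the smaller spread of the supplemented arrays has a part in these medians was not tested.

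Within diets, Il2ra, Il2rb and Lag3 were high or low together from array to array. Correlations were taken over the 17 arrays after each diet's mean was subtracted, with two-sided permutation tests that shuffled arrays within diets and adjustment over 45 pairs. A p-value printed beside r and rho is that of r. Il2rb and Lag3 correlated at r = 0.87 (rho 0.83, permutation p = 9e-05, adjusted p = 0.0021). Il2ra correlated with Lag3 at r = 0.84 (rho 0.80, permutation p = 0.0001, adjusted p = 0.0021) and with Il2rb at r = 0.79 (rho 0.76, permutation p = 0.00014, adjusted p = 0.0021). Without the 2 arrays farthest from the median of the gene named first, r was 0.83, 0.80 and 0.79. Ikzf2 and Nrp1 formed another pair at r = 0.82 (rho 0.83, permutation p = 0.0002, adjusted p = 0.00225), and 0.87 without the 2 farthest arrays. Within the 6 supplemented arrays r was 0.89 for Il2rb with Lag3 and 0.88 for Ikzf2 with Nrp1, and within the 6 regular arrays 0.78 and 0.71. These 4 pairs passed in 17 of 17 repeats that each left out 1 array.

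Of the 45 pairs 7 passed by r, and the other 3 were less stable. These 3 did not pass the permutation test of rho. Its adjusted p over 45 pairs was 0.0985 for Il2ra with Ctla4, 0.129 for Il2rb with Ikzf2 and 0.121 for Entpd1 with Nrp1. Il2ra with Ctla4 had r = 0.70 (rho 0.65, permutation p = 0.003, adjusted p = 0.0247) and passed in 13 of 17 repeats. Il2rb with Ikzf2 had r = 0.69 (rho 0.56, permutation p = 0.0033, adjusted p = 0.0247), passed in 13 of 17, and was at 0.94 within the supplemented and -0.05 within the regular arrays. Entpd1 with Nrp1 had r = 0.67 (rho 0.58, permutation p = 0.0068, adjusted p = 0.0437), passed in 7 of 17, and was at 0.40 without the 2 arrays farthest from the Entpd1 median. With array spread as a covariate Il2ra with Il2rb (r = 0.74, adjusted permutation p = 0.0635) and Il2rb with Ikzf2 (r = 0.59, adjusted permutation p = 0.109) did not pass. Il2rb itself had r = 0.63 with array spread within diets, the highest of the 10 genes, over the same 17 arrays. The 45 pairs were taken up after the data had been looked at. The share of all gene pairs that reach such r was not computed, so these r are not shown to be particular to the 10 genes.

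Of the 9 pairs of Foxp3 with the other genes 0 passed the permutation test of r, and 2 had an unadjusted p below 0.05. These were Ikzf2 (r = 0.53, rho 0.44, permutation p = 0.0328, adjusted p = 0.193 over 9 pairs) and Il2rb (r = 0.53, rho 0.52, permutation p = 0.0429, adjusted p = 0.193), at 0.48 and 0.46 without the 2 arrays farthest from the Foxp3 median. In the permutation test of rho other genes had an unadjusted p below 0.05. They were Il2ra (rho 0.57, permutation p = 0.0316) and Il10 (rho -0.54, permutation p = 0.0449), each with adjusted p = 0.152 over 9 pairs. With Il2ra, r was -0.05 within the supplemented and 0.83 within the regular arrays, a difference that was not tested. The 5 genes most like Foxp3 among 10878 others above the 25th percentile of means, by r over the 17 arrays, were Mrpl51 (0.82), Kdm2b (0.82), Kmt5a (0.80), Atp5f1d (0.80) and Arhgef11 (0.79). They are the highest of many, and their r is given as a description. Among the 10 genes Il2rb came nearest, at rank 375. Nt5e had r = 0.23 with Foxp3 (rho 0.05, permutation p = 0.396).

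**Figure D4:**
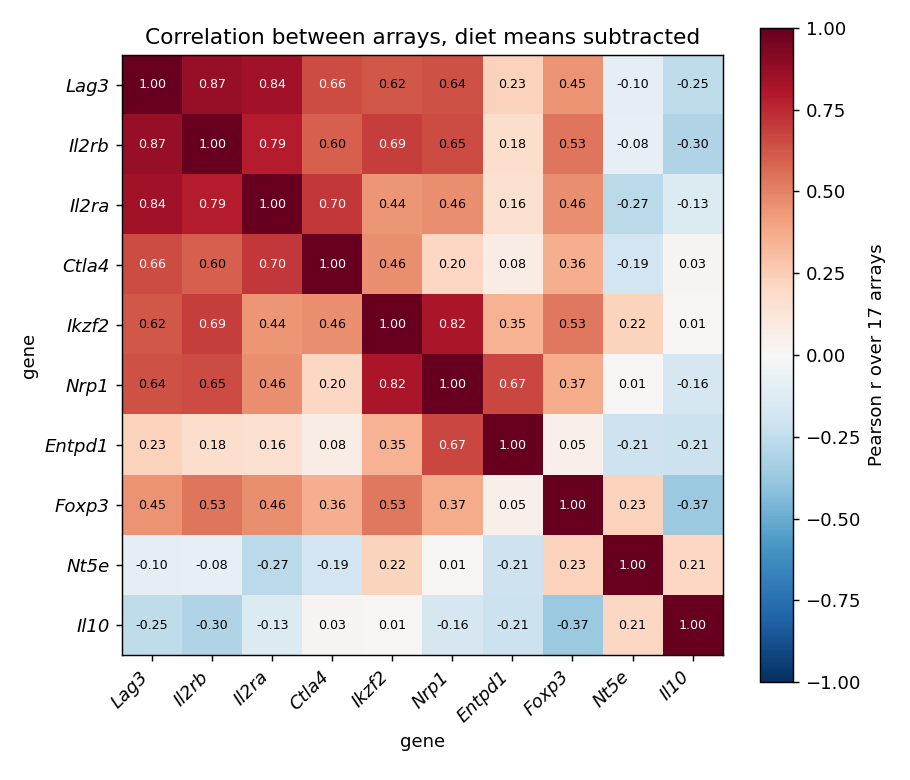
Pearson r (colour and number) between pairs of the 10 genes over 17 arrays after subtraction of each diet's mean. Lag3, Il2rb and Il2ra stand at 0.79 to 0.87 with each other and Ikzf2 with Nrp1 at 0.82, whereas Nt5e stays between -0.27 and 0.23 with the others.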

How the data were processed

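RNA from each sample was measured on 1 Affymetrix whole-transcript rat array. The deposited values are log2 expression values that the authors made with RMA and Partek 6.0, per the submitters' processing notes. The log base was read from their range, and the sources used here name neither probe file nor genome build. Of 29214 transcript clusters 15310 had 1 symbol, 323 several and 13581 none in the platform annotation, which gave 14506 genes, each by its cluster with the highest mean and with no level filter. Differences came from lmFit and eBayes of limma 3.58.1 (R 4.3.3), with all 3 diets in the model, adjusted with Benjamini-Hochberg over all genes at 0.05, and tested on simulated data. P-values measure the spread between the labelled biological replicates. Correlations used 100000 permutations within diets. The genes and lists were chosen with earlier results of these data known. Named are the 10 genes, per list and comparison at most 3 passing genes with the smallest p, the 5 genes most like Foxp3, and Cd4 and Cd3e. Alternatives varied normalization, filter, variance model, covariates, replicate block, threshold and arrays.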

Additional observations from a re-analysis of the deposited data

Results flagged for a closer look

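In 2 of 30 sets of arrays (10 genes in 3 diets) a single array lay farther from the rest than Dixon's 95% limit allows, and chance alone flags about 1 in 20 such sets. Entpd1 in supplemented replicate 6 was at 6.24, with the next supplemented array at 5.80. Nrp1 in deprived replicate 3 was at 7.45, with the next deprived array at 7.04. Deprived replicate 3 also held the highest deprived values of Il2ra, Il2rb, Ikzf2, Entpd1 and Lag3.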

How the results depend on the processing

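For supplemented minus regular the 1 gene called became 0 with quantile normalization, cyclic loess, all transcript clusters tested, a variance trend with robust moderation, array weights, array spread as a covariate, the replicate block and supplemented replicates 2 and 5 left out together, and 2 with median centring, a threshold of 0.1 and the B cell marker mean as a covariate, and 0 to 2 without single arrays. For deprived minus regular the 1 gene called became 0 with quantile normalization, array spread as a covariate and the replicate block, and 0 to 1 without single arrays. For supplemented minus deprived the 2 genes called became 0 with array spread as a covariate, and 1 with quantile normalization, cyclic loess, all transcript clusters tested, a variance trend with robust moderation, supplemented replicates 2 and 5 left out together and only the 2 diets compared, and 4 with the replicate block, and 5 with median centring, a threshold of 0.1 and the B cell marker mean as a covariate, and 1 to 4 without single arrays. For the F test the 1 gene called became 0 with array spread as a covariate, and 2 with the dimmest 25% of genes left out and the dimmest 50% of genes left out, and 3 with a threshold of 0.1 and the B cell marker mean as a covariate, and 4 with median centring, and 1 to 4 without single arrays. Of the pairs among the 10 genes 7 passed, 11 did with quantile normalization, 5 with array spread as a covariate and 4 to 10 without single arrays. Nt5e for deprived minus regular did not pass with quantile normalization (0.26, adjusted p = 0.0679), array spread as a covariate (0.28, adjusted p = 0.0744) or the replicate block (0.28, adjusted p = 0.0563) in limma, and passed in 20 of 31 alternatives, while for supplemented minus deprived it passed in 30 of 31. Ctla4 passed in 12 of 31 alternatives for supplemented minus regular and in 12 of 31 for supplemented minus deprived.

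Alternatives that kept the means of the compared diets could not change a sign. They were the threshold of 0.1, the filters, all transcript clusters tested, the variance trend and only the 2 diets compared. The same holds for leaving out arrays of a diet outside the comparison. Such fits are counted among the 921 differences recomputed for single genes. Of the 921 differences 52 changed sign, 0 of them called in either fit. For supplemented minus regular these were Foxp3 0.013 and Ikzf2 0.097 with quantile normalization, Il2ra -0.015 and Nrp1 -0.046 with median centring, Ikzf2 0.092 with cyclic loess, Foxp3 0.14, Il2rb 0.32, Ikzf2 0.30 and Lag3 0.48 with array spread as a covariate, Ikzf2 0.074 with supplemented replicates 2 and 5 left out together, Il2ra -0.048, Il10 0.045 and Nrp1 -0.014 with the B cell marker mean as a covariate. For deprived minus regular these were Il2rb -0.050 with quantile normalization, Foxp3 0.0028 and Ctla4 0.016 with median centring, Il2rb -0.048 with cyclic loess, Foxp3 0.021 and Ctla4 0.040 with array weights, Il2rb -0.18 and Lag3 -0.034 with array spread as a covariate, Ctla4 0.025 with the replicate block. For supplemented minus deprived these were Foxp3 0.063 and Il2ra 0.16 with quantile normalization, Foxp3 0.054 and Il2ra 0.14 with cyclic loess, Foxp3 0.23, Il2ra 0.24, Il2rb 0.50, Ikzf2 0.19, Entpd1 -0.094, Lag3 0.51 and Nrp1 0.019 with array spread as a covariate, Il10 0.0080 with the B cell marker mean as a covariate. Without single arrays the sign changed for Il10 for supplemented minus regular (-0.078 to 0.041), Ikzf2 for supplemented minus regular (-0.13 to 0.046), Nrp1 for supplemented minus regular (-0.0065 to 0.074), Ctla4 for deprived minus regular (-0.19 to 0.15), Il2rb for deprived minus regular (-0.086 to 0.11), Lag3 for deprived minus regular (-0.033 to 0.31), Foxp3 for deprived minus regular (-0.079 to 0.032), Il10 for deprived minus regular (-0.022 to 0.098) and r of Foxp3 and Entpd1 (-0.13 to 0.21).

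Median centring moved the median of all genes for supplemented minus deprived by -0.104, and it gave 332 higher and 3262 lower for supplemented minus regular, against 1460 higher and 2420 lower in the values as deposited, and 656 higher and 4167 lower for supplemented minus deprived, against 2663 higher and 3074 lower. For deprived minus regular the split was 121 higher and 16 lower as deposited, 24 higher and 13 lower with quantile normalization, 35 higher and 22 lower with cyclic loess and 31 higher and 27 lower with array spread as a covariate. That covariate gave 0 higher and 0 lower for supplemented minus regular and 0 higher and 0 lower for supplemented minus deprived in limma, with 1416 and 1385 genes at an unadjusted p below 0.05. Without it limma gave 5877 and 7240 genes at an unadjusted p below 0.05. Arrays of different diets that share a replicate number did not deviate together (16 pairs, r -0.17 to 0.16), 1 of 17 arrays correlated best with its own number, and the block result is given only as an alternative. The leave-outs of the supplemented arrays of smallest spread and the B cell covariate were chosen after seeing the data. The cause of these changes was not tested. Il10 was not fitted with the dimmest genes left out, nor Entpd1 with the dimmest 50% left out. The 5 or 6 arrays per diet limit the precision, no batch or scan date was at hand, and Il10 lies near the lowest signals of the array.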
